A study of Mus musculus with 18 samples.

Results

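The phase II conjugating enzymes are the UDP-glucuronosyltransferases (Ugt genes), the soluble and microsomal glutathione S-transferases (Gst and Mgst genes) and the sulfotransferases (Sult genes). Members were chosen by symbol alone: every Ugt gene of families 1 to 3, every Gst gene of the classes alpha, kappa, mu, omega, pi, theta and zeta, every Mgst gene and every Sult gene, leaving out symbols with a hyphen such as pseudogenes. This gave 51 protein-coding genes of 18838 in any table, with 48 in the crypt table, 49 in the day 1 table and 50 in the day 3 table. They comprised 18 Ugt, 22 Gst, 3 Mgst and 8 Sult genes.

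Phase II enzymes attach a polar group to drugs, diet-derived toxins, steroids, bile pigments and lipid peroxidation products, so that the conjugate can be carried out of the cell. Glucuronosyltransferases sit in the endoplasmic reticulum and use UDP-glucuronic acid, glutathione S-transferases use reduced glutathione, and sulfotransferases are cytosolic and use the activated sulfate donor PAPS. In the small intestine these enzymes are carried mostly by absorptive enterocytes, where they act on ingested compounds before these reach the liver.

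RNA was measured in 18 bulk libraries from the duodenum of 3 WT (Mtgr1+/+) and 3 Mtgr1-/- mice, each mouse sampled as freshly isolated crypts (day 0) and as enteroids after 24 h (day 1) and 72 h (day 3) of culture. MTGR1, encoded by Cbfa2t2, is a transcriptional corepressor, and the Mtgr1-/- mice carried the null allele in every tissue, not in the epithelium alone. Littermates of both sexes, matched for age, were used, and enteroids of both genotypes grew in Matrigel with EGF, Noggin and R-spondin. The levels are normalized counts, that is gene-level read counts divided by a factor per library, and each day was normalized on its own, so that values of different days stand side by side here and were not compared by a test. In bulk RNA, fewer cells of a type and less RNA per cell cannot be told apart.

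Depth was between 22035316 and 29661084 reads per library, with a median of 26258539. Cbfa2t2 itself was not lower in the libraries labelled Mtgr1-/-: its normalized counts in crypts were 614, 523 and 595 in WT against 697, 466 and 534, and it passed the test on no day (limma, adjusted p of 0.92, 0.056 and 0.69 in crypts, at day 1 and at day 3). Which part of the gene the allele removes was not tested with these gene-level counts, and Mtgr1-/- below stands for the label. WT crypt mouse 3 stood apart, with a summed level of 10 immune markers of 11752 against 1366 and 1466 in the other WT crypts. The mitochondrial gene COX1 took 5.61% of the normalized counts in this library and 4.78% in Mtgr1-/- crypt mouse 3. In the other crypt libraries it took between 2.62% and 2.76%. Xist was at 9047 or more in WT mouse 3 and Mtgr1-/- mouse 1 and at 19.6 or less in the other libraries, so each genotype held 1 mouse with it. Enteroids of Mtgr1-/- mouse 2 stood apart as well. Their Paneth markers summed to 40592 at day 1 and 78891 at day 3, against 5958 and 17092 and then 5799 and 8291 in those of the other Mtgr1-/- mice. At day 3 they also had the highest sum of enterocyte markers, 1483110 against 844591 and 871874, and the highest values of Gsta1, Gsta2, Ugt1a9 and Ugt2b5 of the Mtgr1-/- enteroids, but not of Gstm1, Gstm3 or Ugt1a1. Without this mouse 29 enzymes were higher and 2 lower at day 1, with a median log2 difference of 1.03, and 32 were higher and 1 lower at day 3, with a median of 0.92.

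Of the 51 enzymes, 41 had a mean normalized count of at least 10 on at least 1 day and were tested there. The other 10 were Gsto2, Gstt4, Sult5a1, Ugt1a10, Ugt1a2, Ugt1a5, Ugt2a2, Ugt2b1, Ugt2b37 and Ugt3a1, and no value of theirs in any library was above 29.8. Sult1a1 was tested in crypts alone, Ugt1a6b in enteroids alone and Sult4a1 at day 3 alone. A gene that reaches this mean through 1 genotype alone has to differ, so counts of called genes below describe the tested members and not all 51. Such genes were Ugt1a6b at day 3, with a mean below 10 in WT, and Sult4a1 at day 3 and Sult1a1 in crypts, with a mean below 10 in Mtgr1-/-.

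The Ugt1 genes share most of their transcript, which limits how far single members can be told apart with reads of 50 bases. Each of the 8 genes lies on chromosome 1 of GRCm38 on the plus strand, has a first coding exon of its own and splices it to the same downstream exon, chr1:88215044-88215175, and those that follow. The end of the own exon is shown here in lower case and the start of the shared exon in capitals for the 5 tested members, whose own exons are chr1:88211959-88212871 for Ugt1a1, chr1:88070800-88071678 for Ugt1a9, chr1:88095064-88095978 for Ugt1a7c, chr1:88138378-88139331 for Ugt1a6a and chr1:88106862-88107799 for Ugt1a6b.
Ugt1a1: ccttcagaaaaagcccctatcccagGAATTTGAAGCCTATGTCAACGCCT
Ugt1a9: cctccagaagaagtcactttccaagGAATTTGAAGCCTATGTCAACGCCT
Ugt1a7c: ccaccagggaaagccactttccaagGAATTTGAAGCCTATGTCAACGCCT
Ugt1a6a: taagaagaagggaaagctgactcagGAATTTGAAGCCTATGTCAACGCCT
Ugt1a6b: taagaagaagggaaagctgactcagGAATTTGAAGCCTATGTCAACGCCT
To the right of the junction the letters are the same in every Ugt1 gene, and Ugt1a6a and Ugt1a6b have the same letters on both sides. A read that falls wholly in capitals therefore fits each of these genes, and the quantification divides such reads among them.

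Across all 51 members, the share of 50-base windows of a gene's annotated transcripts that also occurred in another gene had a median of 1.13%, with 17 members at 0 and 19 above 10%. It was between 52.1% and 79.8% in the 8 Ugt1 genes, and Ugt1a6b had the highest value of them. Gsta1 shared 90.5% of its windows, most often with the predicted gene Gm3776, and Gsta2 shared 49.8%, most often with Gsta1. Gstp2 and Gstp1 shared 54.3% and 33.7%, each most often with the other, and Ugt2b5 and Ugt2b38 shared 41.7% and 37.4%, again each most often with the other. Gstm3, Gstm1 and Gstt3 shared 28.8%, 18.9% and 12.5%, most often with Gm8834, Gstm2-ps1 and Gm20441 in the same order. Levels of these genes are uncertain between the partners, while Gsta4, Gstk1, Gsto1, Gstm4, Gstm5, Gstt1, Mgst1, Mgst3, Sult1b1, Sult1d1, Sult2b1 and Sult6b2 shared no window.

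**Figure D1:**
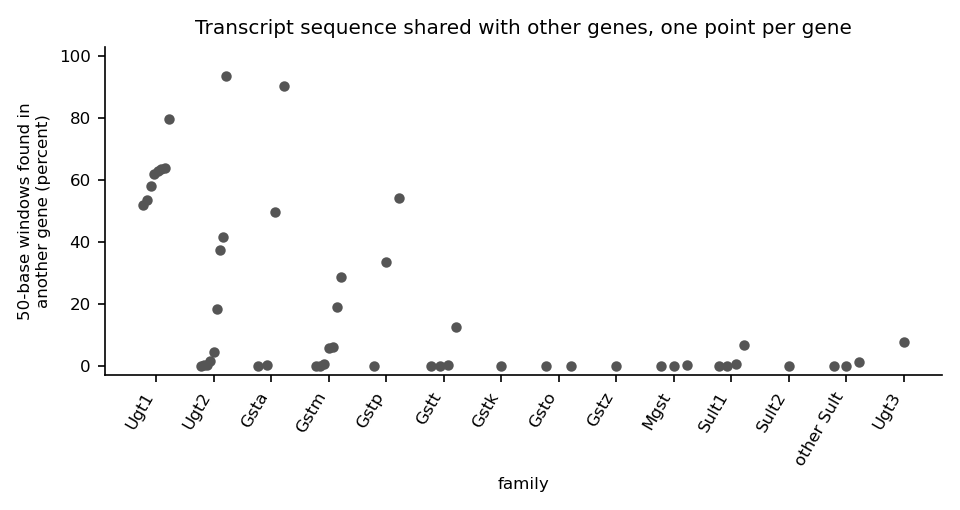
Percent of 50-base windows of each gene's annotated transcripts that occur in another gene, with 1 point per gene and families along the horizontal axis. The Ugt1 points lie between 52.1% and 79.8%, the highest Gsta point is Gsta1 at 90.5%, and 17 genes are at 0.

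Summed over all members, the conjugating enzymes took a larger part of the normalized counts in Mtgr1-/- enteroids than in WT enteroids. Their summed level was 1.24%, 1.04% and 1.28% of the normalized counts in WT day 1 enteroids and 2.28%, 2.01% and 2.07% in Mtgr1-/- day 1 enteroids. At day 3 it was 0.737%, 0.755% and 0.824% in WT and 1.75%, 2.05% and 2.01% in Mtgr1-/- enteroids. In crypts it was 0.557%, 0.583% and 0.488% in WT and 0.583%, 0.505% and 0.651% in Mtgr1-/-. The genotypes were thus apart in every enteroid library and overlapped in crypts, and the sums are described here without a test. They have no correction for length, and abundant genes weigh most in them. At day 1 the Gsta and Gstm families made up 0.742% and 0.519% of the mean of 2.12% in Mtgr1-/- enteroids. In WT they made up 0.366% and 0.325% of the mean of 1.18%.

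Each class showed the same order in enteroids. At day 1 the glutathione S-transferases, without the microsomal ones, made up 0.831% ± 0.105 (SD, n = 3) of the normalized counts in WT and 1.47% ± 0.0860 in Mtgr1-/- enteroids. The glucuronosyltransferases made up 0.236% ± 0.0207 and 0.436% ± 0.0434, and the sulfotransferases 0.0451% ± 0.00541 and 0.122% ± 0.0145, in the same order. At day 3 the sulfotransferases stood at 0.0314% ± 0.00290 and 0.0933% ± 0.0151.

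**Figure D2:**
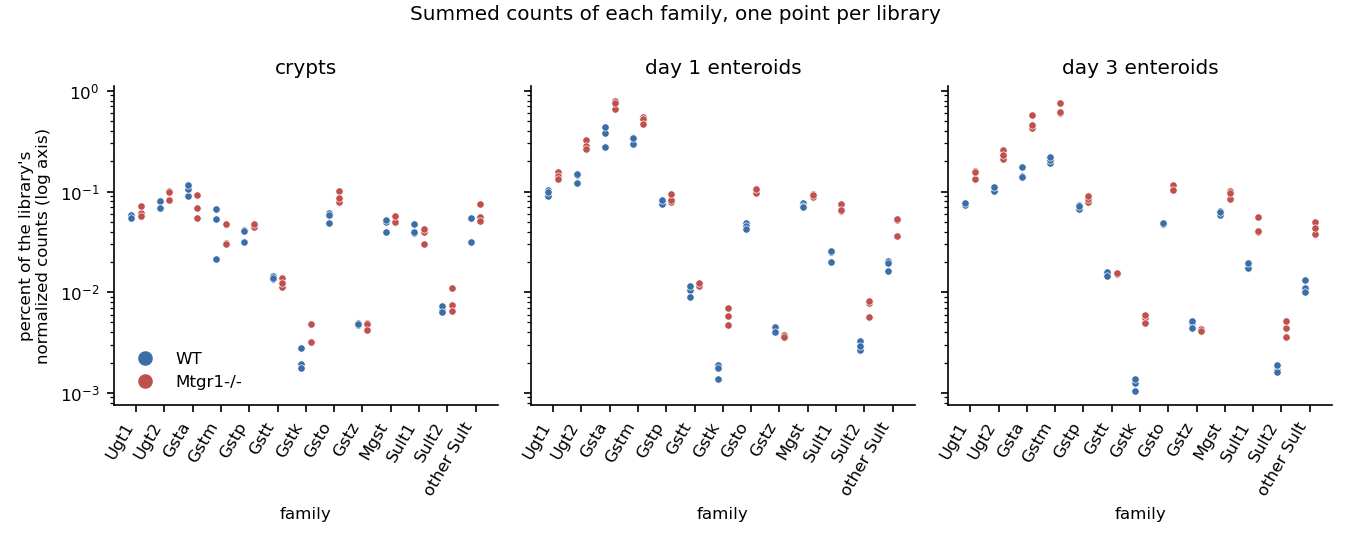
Summed normalized counts of each enzyme family as a percent of all normalized counts of the library, on a log axis, with a point for every library of WT and Mtgr1-/- mice and a panel each for crypts, day 1 and day 3. Over all families together, the WT enteroid libraries lie at 1.28% or less at day 1 and at 0.824% or less at day 3, and the Mtgr1-/- libraries at 2.01% or more and 1.75% or more.

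Gene by gene, 28 of 39 tested enzymes were higher and 1 was lower in Mtgr1-/- day 1 enteroids (limma, adjusted p below 0.05), where 30.0% of all 12587 genes tested were higher and 28.9% lower. At day 3, 32 of 40 were higher and 2 lower, where 29.9% of 12782 genes were higher and 29.1% lower. The 32 include Ugt1a6b and the 2 include Sult4a1, which reached the mean of 10 through 1 genotype alone. The calls of Ugt1a6b and Sult4a1 are no support for a difference. In crypts, 2 of 39 were higher and 1 was lower, where 1.58% of 12980 genes were higher and 3.15% lower. The median log2 difference of the enzymes, on the log2(normalized count + 1) scale, was 0.99 at day 1, 1.03 at day 3 and -0.10 in crypts, and the medians over all genes tested were -0.0080, 0.0026 and 0.0076. Quantile normalization gave the enzymes a median of 0.63 at day 1, with 24 higher and 2 lower. The crypt median was -0.20 without WT mouse 3, -0.21 without Mtgr1-/- mouse 3, -0.048 without Mtgr1-/- mouse 2, -0.23 with edgeR and -0.22 with DESeq2. The 28 enzymes higher at day 1 were all among the 32 higher at day 3, and Gstt2 was lower on both days.

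The groups did not overlap for 28 of the 39 enzymes at day 1, 27 of them with all Mtgr1-/- libraries above all WT libraries, where 68.1% of all genes tested did not overlap. At day 3 they did not overlap for 34 of 40, 32 of these with Mtgr1-/- above, where 68.8% of all genes did not. Ugt1a6b and Sult4a1 were among these 34. In crypts they did not overlap for 13 of 39, 6 with Mtgr1-/- above and 7 below, where 25.5% of all genes did not.

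The total of normalized counts was itself larger in Mtgr1-/- than in WT enteroids at day 1 and at day 3, without overlap. Scaling each library to its total moved the median of all genes to -0.33 at day 1 and -0.20 at day 3. On that scale the median of the enzymes was 0.67 and 0.83, with 25 higher and 3 lower at day 1 and 29 higher and 3 lower at day 3, while over all genes 2200 were higher and 5614 lower at day 1 in place of 3776 and 3637, and 2748 and 5089 at day 3 in place of 3826 and 3719. Of the 29 enzymes called at day 1, 25 were called under each of 18 alternative settings, with Gstm3, Gstp1, Gstp2 and Ugt2a3 lost under at least 1. At day 3, 30 of 34 were, with Gstp1, Gstt3, Ugt2a3 and Sult4a1 lost under at least 1.

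**Figure D3:**
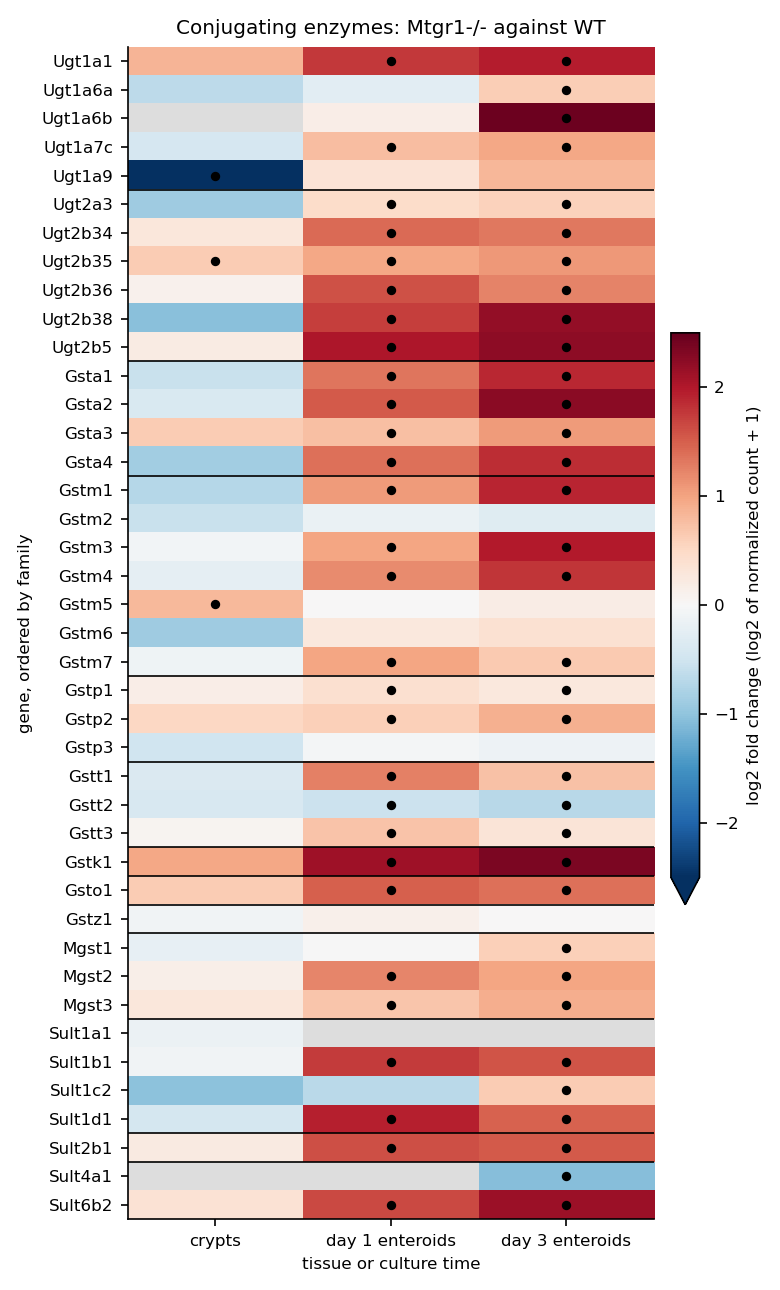
Log2 difference between Mtgr1-/- and WT for each tested enzyme, ordered by family, in crypts, day 1 and day 3 enteroids, with red for higher and blue for lower in Mtgr1-/-, colours limited to 2.5 either way, grey for not tested and a dot where the adjusted p was below 0.05. Dots stand on 3 squares for crypts, 29 for day 1 and 34 for day 3, and only Gstt2 carries a dot for a lower level on both enteroid days. The day 3 dots include Ugt1a6b and Sult4a1, which reached the mean of 10 through a single genotype.

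Among the Ugt1 genes, 2 of 5 tested were higher at day 1 and 4 of 5 at day 3, and none was lower. For comparison, the share of all tested genes called higher was 30.0% on day 1 and 29.9% on day 3. The share called lower was 28.9% on the former day and 29.1% on the latter. With only 5 genes, the count of neither day is read as showing a trait of the family. The day 3 count also holds Ugt1a6b, which reached the mean of 10 through the Mtgr1-/- libraries alone. Ugt1a1 encodes the enzyme that conjugates bilirubin. Its normalized counts were 4025, 4005 and 4673 in WT and 15462, 13712 and 14228 in Mtgr1-/- day 1 enteroids. At day 3 they were 2934, 3824 and 3729 against 10766, 14232 and 16133. In crypts they were 4056, 4380 and 7123 against 8093, 8326 and 10856. All 3 Mtgr1-/- libraries lay above all WT libraries on each of the 3 days. The log2 difference of Ugt1a1 was 1.77 (SE 0.098, limma adjusted p = 3.4e-05) at day 1 and 1.96 (SE 0.16, adjusted p = 5.5e-05) at day 3, and in crypts 0.84 (SE 0.23, adjusted p = 0.0998), which did not pass.

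Ugt1a7c, which acts on phenols, gave 15276, 12341 and 14533 in WT against 27318, 21441 and 23602 in Mtgr1-/- at day 1. Day 3 gave 10158, 9676 and 10610 against 17136, 23204 and 19802. The groups of Ugt1a7c were apart on both enteroid days, with log2 differences of 0.78 (SE 0.13, limma adjusted p = 0.0018) and 0.97 (SE 0.12, adjusted p = 0.00035). In crypts its values, 9517, 9824 and 6397 against 6042, 5173 and 8034, overlapped. Part of the annotated sequence of this gene lies in a transcript that starts with the own exon of Ugt1a6a.

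Ugt1a9 was the enzyme with the largest log2 difference in crypts. Its values there were 162, 123 and 154 in WT and 25.4, 4.76 and 6.10 in Mtgr1-/- crypts. The highest Mtgr1-/- crypt library was thus far below the lowest WT one, with a log2 difference of -3.83 (SE 0.59, limma adjusted p = 0.016). This call was lost without WT mouse 1, WT mouse 2 or Mtgr1-/- mouse 3 (adjusted p of 0.087, 0.069 and 0.057), with differences between -3.95 and -3.57 in those fits, and the difference was -4.52 without Mtgr1-/- mouse 1. In enteroids Ugt1a9 stood at 486, 348 and 277 against 757, 312 and 405 at day 1. Day 3 gave 705, 578 and 959 against 1018, 2860 and 770. The groups overlapped on both enteroid days, and the 95% intervals of the log2 difference ran from -0.43 to 1.12 and from -0.17 to 1.84.

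Ugt1a6a and Ugt1a6b, whose junctions are the same in the sequences shown, were called higher at day 3 and not called at day 1. Ugt1a6a had values of 4351, 3720 and 3445 in WT and 5520, 6616 and 5498 in Mtgr1-/- at day 3, with a log2 difference of 0.62 (SE 0.11, limma adjusted p = 0.0024). At day 1 its values of 5860, 4197 and 3721 against 5214, 3266 and 3060 overlapped (interval of the log2 difference from -0.81 to 0.27). Taking the mouse number as a block, Ugt1a6a was called lower at day 1, giving 2 lower calls among the enzymes in place of 1. The labels do not say that same-numbered mice of different genotypes are paired. Ugt1a6b was named here after its values were seen because its mean was below the minimum for named genes. It had 8.07, 3.56 and 3.87 in WT and 34.1, 35.8 and 24.7 in Mtgr1-/- at day 3. The gene reached the mean of 10 through the Mtgr1-/- libraries alone, so that its call is no support for a difference.

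All 6 tested Ugt2 genes were higher on both enteroid days, where 30.0% and then 29.9% of all genes tested were higher. Their log2 differences were between 0.46 and 2.03 at day 1 and between 0.57 and 2.24 at day 3. The Ugt2 genes lie together on chromosome 5 and glucuronidate steroids, bile acids and other lipophilic compounds. Ugt2b5 showed the largest difference of the family, with 2567, 1666 and 2021 in WT and 10827, 7063 and 7692 in Mtgr1-/- day 1 enteroids. Its day 3 values were 1507, 1594 and 2254 against 6712, 11487 and 7384. In crypts it had 362, 271 and 360 against 430, 210 and 611. The crypt groups overlapped, and in enteroids the lowest Mtgr1-/- library of Ugt2b5 was well above the highest WT one. Its log2 differences were 2.03 (SE 0.20, limma adjusted p = 0.00025) at day 1 and 2.24 (SE 0.22, adjusted p = 0.00012) at day 3.

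Ugt2b34 had the highest normalized counts of the family, with no correction for length, at 27285, 20565 and 26541 in WT and 77626, 58265 and 63848 in Mtgr1-/- at day 1. By day 3 the values were 16636, 16536 and 17974 against 37580, 48806 and 42319, and crypts gave 17198, 17524 and 13838 against 20635, 16612 and 22268. Enteroid groups were apart and crypt groups overlapped. The log2 differences of Ugt2b34 were 1.43 (SE 0.17, limma adjusted p = 0.00044) and 1.32 (SE 0.12, adjusted p = 7.8e-05) at day 1 and day 3. Ugt2b38, which shares windows with Ugt2b5, had 112, 70.8 and 50.3 against 337, 296 and 152 at day 1 and 85.1, 51.7 and 79.4 against 264, 510 and 256 at day 3. Its enteroid groups did not overlap, whereas its crypt values of 37.4, 34.6 and 93.2 against 21.7, 14.3 and 41.7 did.

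Ugt2b35 was called on all 3 days. In crypts its values were 1613, 1494 and 1184 in WT and 2310, 1991 and 2358 in Mtgr1-/-, with a log2 difference of 0.64 (SE 0.14, limma adjusted p = 0.049). At day 1 they were 4517, 3908 and 4857 against 9730, 7808 and 8327, a log2 difference of 0.96 (SE 0.12, limma adjusted p = 0.00055). At day 3 they were 3778, 4023 and 4078 against 7365, 8883 and 9207, a log2 difference of 1.09 (SE 0.10, limma adjusted p = 8.5e-05). No Mtgr1-/- library of Ugt2b35 fell within the WT range on any day, but the crypt call was lost on leaving out any 1 of the 6 crypt libraries (adjusted p from 0.056 to 0.15). Ugt2b36 and Ugt2a3 were the other enteroid calls of the family, Ugt2b36 at 1.60 and 1.25 and Ugt2a3 at 0.46 and 0.57 on the log2 scale at day 1 and day 3.

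The 4 alpha class glutathione S-transferases were higher on both enteroid days, where 30.0% and then 29.9% of all genes tested were higher. Medians of their log2 difference were 1.36 at day 1 and 1.86 at day 3. Alpha class enzymes reduce lipid peroxides and conjugate electrophiles, and Gsta4 acts on 4-hydroxynonenal, a product of lipid peroxidation. Gsta1 had 68749, 45854 and 72690 in WT and 173833, 127223 and 168284 in Mtgr1-/- day 1 enteroids. At day 3 it had 23297, 23684 and 30211 against 76387, 123563 and 88020. In crypts it had 16594, 20751 and 22606 against 12251, 10180 and 19531. Enteroid groups were apart, and crypt groups overlapped with the lower values in Mtgr1-/-. The log2 differences of Gsta1 were 1.34 (SE 0.23, limma adjusted p = 0.0021) at day 1 and 1.88 (SE 0.20, adjusted p = 0.00016) at day 3.

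Gsta2 followed Gsta1, with which it shares windows, at 10426, 7042 and 12639 in WT and 33368, 22923 and 29308 in Mtgr1-/- at day 1. At day 3 its values were 3546, 2902 and 4580 against 14561, 23150 and 15249, and in crypts 1812, 2218 and 1950 against 1590, 1155 and 1957. Crypt libraries overlapped and enteroid libraries did not. Gsta2 had a log2 difference of 1.53 (SE 0.23, limma adjusted p = 0.0011) at day 1 and of 2.26 (SE 0.21, adjusted p = 9.8e-05) at day 3.

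Gsta4, which shares no window with another gene, had the same pattern. Its day 1 values were 14958, 9480 and 17247 in WT and 40461, 28076 and 37493 in Mtgr1-/-. Its day 3 values were 4938, 4710 and 5912 against 17998, 20170 and 17272. Its crypt values were 4041, 3936 and 5507 against 2609, 1670 and 3249. All Mtgr1-/- libraries of Gsta4 were below all WT libraries in crypts and above all of them in enteroids. The log2 difference was 1.37 (SE 0.24, limma adjusted p = 0.0020) at day 1, 1.84 (SE 0.11, adjusted p = 1.4e-05) at day 3 and -0.88 (SE 0.25, adjusted p = 0.12) in crypts, which did not pass.

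Of the 7 mu class genes, which lie side by side on chromosome 3, Gstm1, Gstm3, Gstm4 and Gstm7 were higher on both enteroid days, while Gstm2, Gstm5 and Gstm6 were called on neither. The share of all tested genes called higher was 30.0% at day 1 and 29.9% at day 3. With 7 genes, the count of higher ones is not read as showing a trait of the class. Mu class enzymes conjugate epoxides and other electrophiles with glutathione. Gstm1 had 39418, 29809 and 30991 in WT and 80705, 63347 and 64188 in Mtgr1-/- at day 1. Day 3 gave 22966, 24221 and 26662 against 77930, 97078 and 101068, with groups apart on both days. Its log2 differences were 1.06 (SE 0.17, limma adjusted p = 0.0014) and 1.90 (SE 0.14, adjusted p = 3.0e-05). In crypts the values of 4126, 4767 and 1178 against 1304, 1449 and 2824 overlapped, and the low WT value was that of mouse 3, the crypt library with the high immune marker sum.

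Gstm3 stood at 40634, 34230 and 45425 in WT and 84908, 76164 and 76429 in Mtgr1-/- at day 1. Its day 3 values were 18413, 20546 and 22287 against 70867, 76701 and 97368, again without overlap. The log2 difference of Gstm3 was 0.99 (SE 0.15, limma adjusted p = 0.0012) at day 1 and 1.99 (SE 0.15, adjusted p = 3.3e-05) at day 3, and the day 1 call was lost with quantile normalization, at 0.32 (adjusted p = 0.077). In crypts WT mouse 3 was again low, with 5716, 8723 and 1628 in WT and 3295, 3159 and 6780 in Mtgr1-/-.

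Gstm5 was higher in crypts and not called in enteroids. Its crypt values were 630, 615 and 439 in WT and 851, 1091 and 972 in Mtgr1-/-, without overlap, with a log2 difference of 0.80 (SE 0.17, limma adjusted p = 0.049). Leaving out any 1 of the 6 crypt libraries ended this call (adjusted p from 0.056 to 0.14). At day 1 Gstm5 stood at 932, 903 and 668 against 861, 744 and 880, with an interval of the log2 difference from -0.34 to 0.34. At day 3 it stood at 876, 811 and 751 against 957, 839 and 966, with an interval from -0.05 to 0.41. The enteroid groups overlapped on both days.

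Gstk1, the kappa class enzyme of mitochondria and peroxisomes, had the largest log2 difference of the tested enzymes at day 1. Its values were 467, 316 and 419 in WT and 2176, 1277 and 1822 in Mtgr1-/- day 1 enteroids. At day 3 they were 294, 253 and 333 against 1443, 1742 and 1346. In crypts they were 480, 450 and 728 against 1160, 768 and 1302. The groups were apart on all 3 days, least so in crypts. Log2 differences of Gstk1 were 2.12 (SE 0.22, limma adjusted p = 0.00029) at day 1, 2.36 (SE 0.14, adjusted p = 1.3e-05) at day 3 and 0.96 (SE 0.25, adjusted p = 0.092) in crypts, the last not passing.

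Gsto1, an omega class enzyme with thioltransferase and dehydroascorbate reductase activity, was likewise apart on all 3 days. Its values were 12258, 10475 and 10055 in WT and 33200, 26115 and 33170 in Mtgr1-/- at day 1, and 11117, 11387 and 11857 against 27150, 34136 and 27971 at day 3. In crypts they were 15467, 14702 and 12523 against 24427, 18814 and 23551. Every Mtgr1-/- value exceeded every WT value of Gsto1 of the same day. The log2 differences were 1.49 (SE 0.13, limma adjusted p = 0.00019), 1.37 (SE 0.11, adjusted p = 4.5e-05) and 0.64 (SE 0.15, adjusted p = 0.061) at day 1, day 3 and in crypts.

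Of the 3 tested pi class genes 2 were higher on both enteroid days, and of the 3 tested theta class genes 2 were higher and 1 lower. Among all genes tested, calls of a higher level made up 30.0% on day 1 and 29.9% on day 3. Calls of a lower level made up 28.9% and then 29.1%. Beside such shares, 3 genes per class are too few to show a trait of the class. Gstp1, a pi class enzyme, had 14933, 12699 and 13292 in WT and 17274, 15978 and 21091 in Mtgr1-/- day 1 enteroids, and 12377, 12644 and 12725 against 13582, 15902 and 16264 at day 3. These values did not overlap on either day. The log2 differences were 0.40 (SE 0.13, limma adjusted p = 0.028) and 0.27 (SE 0.095, adjusted p = 0.036), but with quantile normalization they were -0.0055 and -0.0018, so the direction of Gstp1 depended on the scaling. Its call was also lost when scaled to library totals, without WT mouse 2 or 3 or Mtgr1-/- mouse 1 or 3 at day 1 (adjusted p from 0.057 to 0.096), and without any 1 library other than Mtgr1-/- mouse 1 at day 3 (adjusted p from 0.055 to 0.13). Gstp2 was also called on both days and Gstp3 on neither.

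Gstt2 was the one tested enzyme called lower on both enteroid days. Its values were 840, 989 and 795 in WT and 591, 547 and 656 in Mtgr1-/- at day 1. At day 3 they were 1131, 1245 and 1053 against 727, 704 and 691. Crypts gave 1015, 986 and 909 against 771, 715 and 724. In every set of libraries the highest Mtgr1-/- value of Gstt2 was below the lowest WT value. The log2 differences were -0.55 (SE 0.12, limma adjusted p = 0.0059) and -0.69 (SE 0.090, adjusted p = 0.00048) in enteroids, held under all 18 alternatives on each day, and -0.40 (SE 0.090, adjusted p = 0.060) in crypts. At day 1 a second enzyme was lower without Mtgr1-/- mouse 1, Gstm2, and without Mtgr1-/- mouse 2, Sult1c2.

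Its neighbours on chromosome 10 went the other way in enteroids. Gstt3 had 1218, 1175 and 891 in WT and 1722, 1628 and 2005 in Mtgr1-/- at day 1, a log2 difference of 0.71 (SE 0.14, limma adjusted p = 0.0037). At day 3 it had 1816, 1835 and 1774 against 2103, 2362 and 2350, a log2 difference of 0.33 (SE 0.077, limma adjusted p = 0.0073), with no overlap on either day. Gstt1 was higher by 1.26 and 0.73 on the log2 scale at day 1 and day 3. Gstz1, the zeta class enzyme of tyrosine breakdown, was not called on any day, at 1007, 1025 and 948 against 1118, 1012 and 1107 at day 1 and 1160, 1250 and 1056 against 1081, 1259 and 1130 at day 3. The enteroid values of Gstz1 overlapped, and the intervals of its log2 difference were -0.08 to 0.32 and -0.22 to 0.23.

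Microsomal glutathione S-transferases are membrane enzymes of another protein family that take part in glutathione conjugation and leukotriene synthesis. Mgst2 and Mgst3 were higher on both enteroid days and Mgst1 at day 3. Of all tested genes, 30.0% were higher at day 1 and 29.9% at day 3, and 3 genes are too few to show a trait of the family. Mgst3 had 7415, 6406 and 7857 in WT and 11938, 10315 and 12934 in Mtgr1-/- at day 1, and 4560, 5336 and 5200 against 7930, 10146 and 10454 at day 3. Its groups were apart on both days, with log2 differences of 0.70 (SE 0.12, limma adjusted p = 0.0020) and 0.91 (SE 0.12, adjusted p = 0.00053). Mgst1 stood at 6630, 5867 and 5230 against 6536, 5351 and 5638 at day 1, overlapping, and at 6036, 6814 and 6564 against 8277, 11408 and 10013 at day 3, apart.

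Cytosolic sulfotransferases of the Sult1 family act on phenols, catecholamines and thyroid hormone. Sult1d1 had 3552, 2713 and 3362 in WT and 14668, 10234 and 12197 in Mtgr1-/- day 1 enteroids. Its day 3 values were 2300, 2383 and 2686 against 5800, 8506 and 6530. In crypts it had 3020, 3198 and 4782 against 2519, 1904 and 3843. The enteroid groups of Sult1d1 were far apart and the crypt groups overlapped. Its log2 differences were 1.94 (SE 0.15, limma adjusted p = 0.00012) at day 1 and 1.48 (SE 0.14, adjusted p = 0.00010) at day 3.

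Sult1b1, the neighbour of Sult1d1 next to the Ugt2 genes on chromosome 5, had 2590, 1881 and 2637 in WT and 8470, 7123 and 8094 in Mtgr1-/- at day 1. Its day 3 values were 1719, 1701 and 1893 against 4308, 7752 and 4385, and its crypt values 6646, 6824 and 7366 against 6875, 5221 and 7647. Crypt libraries overlapped and enteroid libraries did not. The log2 differences of Sult1b1 were 1.75 (SE 0.14, limma adjusted p = 0.00013) and 1.57 (SE 0.21, adjusted p = 0.00051). Sult1c2 was called at day 3 alone, at 114, 125 and 121 in WT against 187, 212 and 167, after overlapping values of 35.7, 22.9 and 31.8 against 14.0, 38.9 and 11.0 at day 1.

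Sult2b1, which sulfates cholesterol and other hydroxysteroids, had 811, 610 and 692 in WT and 2458, 1522 and 2574 in Mtgr1-/- at day 1 and 402, 384 and 461 against 1157, 1529 and 976 at day 3. The groups were apart, with log2 differences of 1.60 (SE 0.21, limma adjusted p = 0.00064) and 1.53 (SE 0.16, adjusted p = 0.00018). Sult6b2, whose substrates are not well known, stood at 5097, 3672 and 4554 in WT and 16120, 9832 and 16478 in Mtgr1-/- at day 1. Day 3 gave 2567, 2418 and 3223 against 9904, 14552 and 11702, and crypts 13806, 13721 and 8215 against 13280, 12207 and 20185. Here too the crypt groups overlapped and the enteroid groups were apart, and the log2 differences of Sult6b2 were 1.65 (SE 0.21, limma adjusted p = 0.00065) and 2.13 (SE 0.16, adjusted p = 3.3e-05).

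Sult4a1, a sulfotransferase best known from brain, stood at day 3 at 15.2, 15.1 and 11.6 in WT and 5.69, 5.97 and 6.74 in Mtgr1-/- enteroids. It was named after its values were seen, since its mean was below the minimum for named genes. The groups did not overlap, at 14.0 ± 2.06 and 6.13 ± 0.543 (SD, n = 3), but the gene reached the mean of 10 through the WT libraries alone, so that its call is no support for a difference. Without any 1 of the WT libraries its mean fell below 10 and it was not tested, and without Mtgr1-/- mouse 1 or 2 it was tested and not called. Gstt2 was then the one lower call of day 3, joined by Gstm2 without WT mouse 1.

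**Figure D4:**
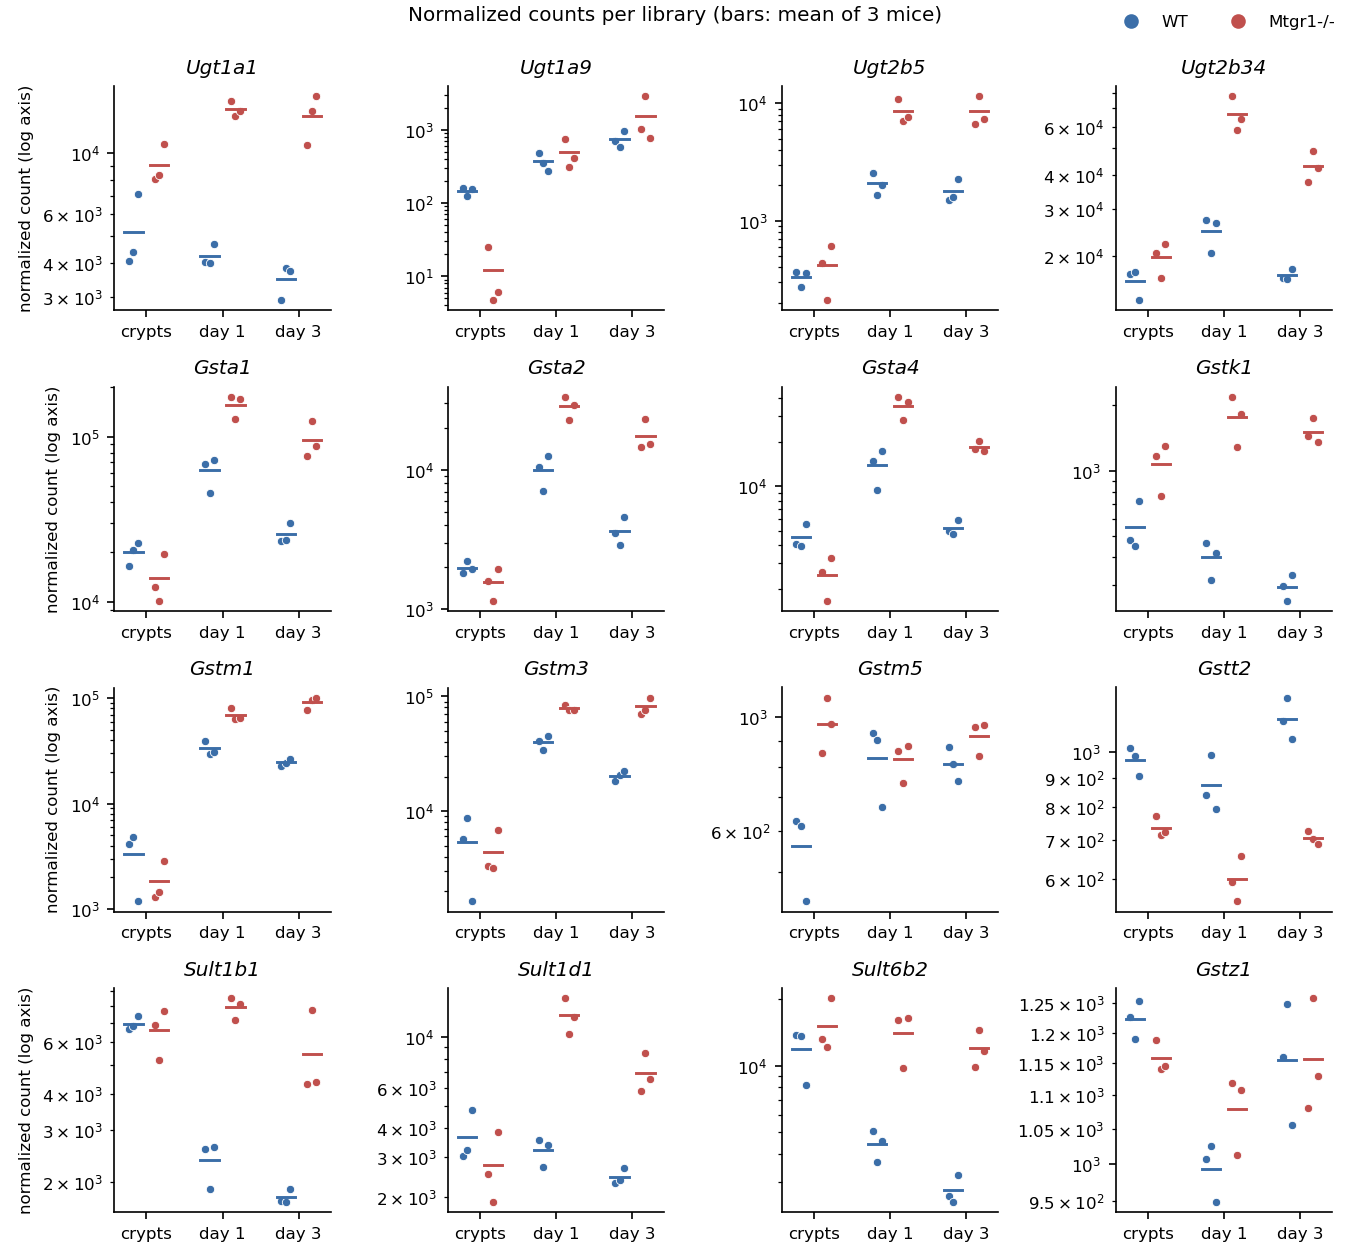
Normalized counts of 16 enzymes in every library, on log axes that differ between panels, for WT (blue) and Mtgr1-/- (red) crypts, day 1 and day 3 enteroids, with bars at the mean of 3 mice. Ugt1a1 and Gstk1 are apart on all 3 days, Ugt1a9 is apart in crypts alone at 25.4 or less against 123 or more, Gstt2 is lower in each set of Mtgr1-/- libraries, and Gstz1 overlaps in enteroids.

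In crypts the 3 calls were Ugt1a9, Gstm5 and Ugt2b35, and none of them held under all 18 alternatives. At an unadjusted p below 0.05 there were 14 of 39 enzymes and 2395 of all 12980 genes. Leaving out 1 library at a time gave between 0 and 3 higher calls and 0 or 1 lower. Without WT mouse 3, the crypt library with the high immune marker sum, Ugt1a1 was the one higher call and Ugt1a9 the one lower. Without Mtgr1-/- mouse 2, Gstk1, Gsto1 and Gstp2 were higher and Ugt1a9 lower, and without Mtgr1-/- mouse 3 Gstm6 was the one call, lower. No enzyme was called without WT mouse 1 or WT mouse 2.

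Whether the genotype difference changed between crypts and day 1 was tested on all 18 libraries. Here the enzymes had 24 of 39 higher and 1 lower (limma, adjusted p below 0.05), that is a genotype difference that was more positive, or more negative, at day 1 than in crypts, where 19.4% of 12937 genes were higher and 20.0% lower. The median change was 1.09 on the log2 scale for the enzymes and 0.023 over all genes. Scaling to library totals moved these medians to 0.74 and -0.33 and gave 22 higher and 2 lower enzymes, while over all genes 1219 were higher and 4458 lower in place of 2504 and 2592. Without Mtgr1-/- mouse 1 there were 16 higher, the lowest count on leaving out a mouse.

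Ugt1a9 had the largest change, 4.18 (SE 0.74, limma adjusted p = 0.0014), from a lower level in Mtgr1-/- crypts to overlapping groups in enteroids. The next were Ugt2b38 at 2.78, Sult1d1 at 2.38, Gsta4 at 2.25 and Gsta2 at 1.91, and all 5 were called under each of 17 alternatives. Gstm5 was the one enzyme called with a negative change, -0.80 (SE 0.21, limma adjusted p = 0.0088), from higher in Mtgr1-/- crypts to overlapping in enteroids. Of the 25 calls, 14 held under all alternatives. The enzymes for which the change did not pass included Ugt2b35 at 0.32, Gsta3 at 0.13, Gstz1 at 0.20 and Gstt2 at -0.15.

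From day 1 to day 3, limma called 0 of 39 enzymes, where 0.0309% of all genes were called, and 6 enzymes and 1007 of all 12937 genes had an unadjusted p below 0.05. No other tool was run for this contrast, and without Mtgr1-/- mouse 2 Sult1c2 was called higher and Gstt1 lower. Over all genes 468 were then higher and 423 lower, in place of 3 and 1. The median change of the enzymes moved from 0.19 to -0.076 without this mouse, so the contrast depended on it. In the fit of all 18 libraries, the day 3 calls of Mgst1, Sult1c2, Ugt1a6a and Ugt1a6b are therefore not shown to differ from day 1, where these were not called.

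**Figure D5:**
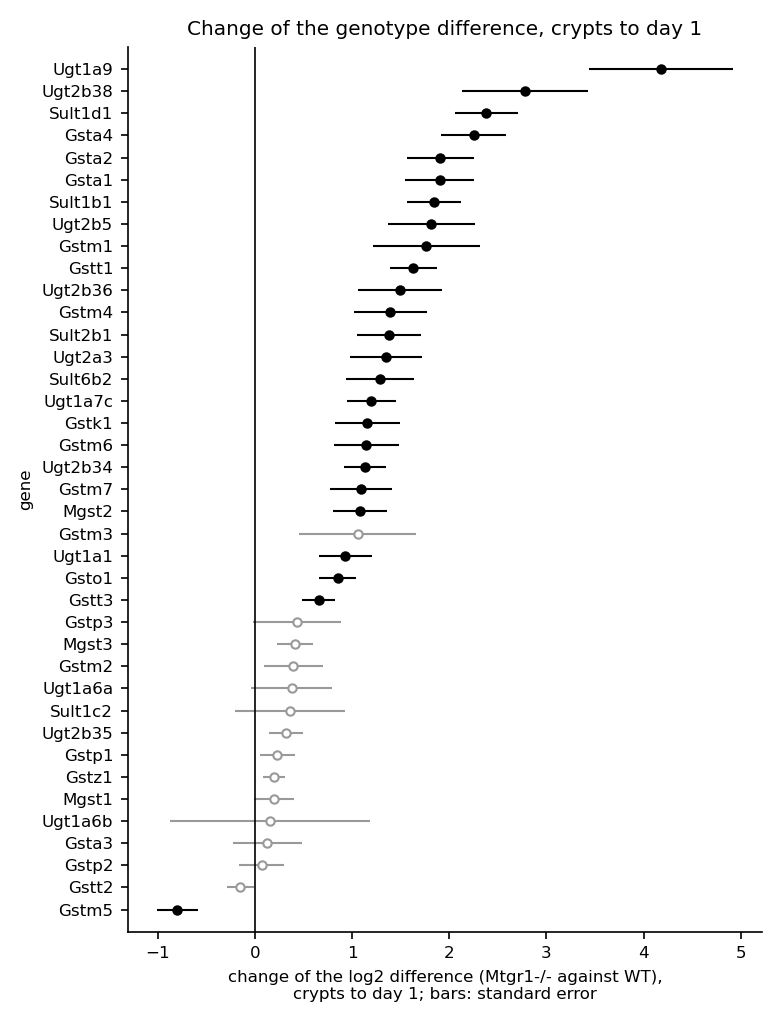
Change of the log2 difference between Mtgr1-/- and WT from crypts to day 1 for each tested enzyme, ordered by size, with bars for the standard error, filled points for an adjusted p below 0.05 and open points for the rest. Ugt1a9 leads at 4.18 and Gstm5 is the one filled point below 0, at -0.80.

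Genes that supply or use the cosubstrates were taken from lists drawn up for this description. Beside the counts of each list below stand the shares over all genes. These were 30.0% higher and 28.9% lower at day 1, 29.9% and 29.1% at day 3, and 1.58% and 3.15% in crypts. Lists of few genes, or with counts near these shares, are not read as showing a trait of the list. Of 6 genes of UDP-glucuronic acid supply, 4 were higher at day 1, and 4 were higher and 1 lower at day 3, with a median log2 difference of 0.99 and 1.20. Ugdh, the dehydrogenase that makes UDP-glucuronic acid, was at 1.31 (SE 0.15, limma adjusted p = 0.00042) at day 1 and 1.34 (SE 0.12, adjusted p = 7.8e-05) at day 3. The nucleotide sugar transporters Slc35d1 and Slc35d2 were at 1.14 and 1.17 at day 1 and at 1.27 and 1.41 at day 3. Uxs1, which turns UDP-glucuronic acid into UDP-xylose, was at -0.26 at day 3.

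Of 10 tested genes of sulfate supply and handling, 8 were higher and 1 lower at day 1, and 6 higher and 1 lower at day 3. The anion exchangers Slc26a2 and Slc26a6 were at 1.69 and 1.61 at day 1 and at 1.83 and 1.55 at day 3. Papss2, a synthase of the sulfate donor PAPS, was at 1.44 (SE 0.26, limma adjusted p = 0.0020) at day 3, and Slc26a3, a chloride and bicarbonate exchanger, at 1.37 at day 1. Impad1, a phosphatase of the spent donor, was at -0.39 and -0.31.

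Of 18 genes of glutathione synthesis and recycling, 12 were higher and 1 lower at day 1, and 15 higher and 1 lower at day 3. The largest rises at day 1 were of peptidases of the brush border, Dpep1 at 3.10, Anpep at 2.82 and the gamma-glutamyltransferase Ggt1 at 2.32. Anpep is also in the list of enterocyte markers. Oplah, the 5-oxoprolinase, was at 2.03 at day 3, and Cbs, which starts the route from homocysteine to cysteine, at -3.21. In crypts Dpep1 and Oplah were higher, at 1.17 and 1.15. Of 4 tested glutathione peroxidases 2 were higher and 2 lower at day 1, with Gpx4 at 1.18 and 1.03 and Gpx1 at 0.92 and 0.96 at day 1 and day 3, and Gpx2 at -0.71 and Gpx3 at -2.88 at day 1.

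Of 11 transporters that carry conjugates out of the cell, 8 were higher and 1 lower at day 1, and 9 higher and 0 lower at day 3. Abcc2, which exports conjugates across the apical membrane, was at 1.60 (SE 0.11, limma adjusted p = 7.5e-05) and 1.82 (SE 0.12, adjusted p = 2.3e-05). Slc51a and Slc51b, the subunits of the basolateral steroid and bile acid carrier, were at 1.73 and 2.46 at day 1, and Slc51b was at 2.01 at day 3. Abcc5 was at 1.96 at day 3, and Abcc1 was at -0.55 at day 1. In crypts limma called 0 of 10 tested transporters and 0 of 6 genes of UDP-glucuronic acid supply, with 1 in each list at an unadjusted p below 0.05 and 0 called by edgeR or DESeq2. For sulfate supply it called 0 of 10 in crypts, with 4 at an unadjusted p below 0.05, 0 called by edgeR and 2 by DESeq2.

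A list of other conjugating and related enzymes had 5 of 8 tested higher at day 1 and 6 of 9 at day 3, with none lower. Those that moved most, Ephx2 at 2.49 and 2.13 and Ephx1 at 1.59 and 1.41, hydrolyse epoxides and attach no group, while Tpmt at 1.28 at day 1 is a methyltransferase and Nat2 at 0.96 at day 3 an acetyltransferase. Of 26 tested regulators of conjugating enzymes, 15 were higher and 2 lower at day 1, and 13 higher and 2 lower at day 3. In crypts limma called 0 of these 26, with 4 at an unadjusted p below 0.05, 0 called by edgeR and 2 by DESeq2. The nuclear receptors Nr1h4, Ppara and Nr1i2 were at 1.39, 1.23 and 1.16 at day 1, and Nr1h4, Ppara and Hnf4g at 1.59, 1.53 and 0.98 at day 3. Foxa2 and Foxa3, forkhead factors also expressed in secretory cells of the intestine, were at -2.68 and -2.15 at day 1 and at -2.03 and -1.97 at day 3.

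Markers of cell types differed between the genotypes too. Of 24 enterocyte markers, 23 were higher and 1 lower at day 1, and 22 higher and 0 lower at day 3, while in crypts limma called 0 higher and 3 lower, edgeR 0 and 2, and DESeq2 5 and 5, with 5 higher and 6 lower at an unadjusted p below 0.05. Their summed level was 534583 to 691837 in WT and 1154330 to 1723650 in Mtgr1-/- day 1 enteroids. At day 3 the sum was 420050 to 469223 against 844591 to 1483110, and in crypts 1007950 to 1156790 against 680098 to 1125460. So the sum did not overlap between genotypes in enteroids and overlapped in crypts, as did the summed level of the conjugating enzymes. Sucrase-isomaltase (Sis), an enterocyte marker, was at -4.51 in crypts and -2.59 at day 1, both called, and at -1.12 at day 3, not called.

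Of 10 stem cell and proliferation markers, 9 were lower at day 1, 10 at day 3 and 1 in crypts. Their summed level did not overlap between genotypes on any day. In crypts it was 55521 to 68240 in WT against 21105 to 32650 in Mtgr1-/-, where the enzyme sum overlapped. There 2 of the 10 were lower at an unadjusted p below 0.05, and edgeR and DESeq2 each called 1 lower. The crypt sum is not read as a lower level of these markers as a set. All 7 tested goblet cell markers were lower on each day, and of 10 enteroendocrine markers 10, 9 and 10 were lower in crypts, at day 1 and at day 3. Of 8 Paneth cell markers 6 were lower on each enteroid day and 1 was higher at day 3, and of 6 tested tuft cell markers 4 were lower on each enteroid day. In crypts the tuft markers summed to 1498 to 1816 in WT and 2262 to 7768 in Mtgr1-/-, where limma and edgeR called 0 of them, 5 were higher at an unadjusted p below 0.05 and DESeq2 called 5 higher. Liver markers, checked because many of these enzymes are abundant in liver, summed to 252 or less in every library, with 3 of 8 tested in enteroids, and the list had 2 of them lower on each enteroid day. Immune markers were called higher for 1 of 7 tested at day 1 and 1 of 4 at day 3 and summed to between 98.9 and 1081 in the enteroid libraries. The highest of these sums were in Mtgr1-/- mouse 3, 817 at day 1 and 1081 at day 3, against 479.4 or less in the others. Mesenchymal and endothelial markers summed to 322 or less in every library. Markers of epithelium as a whole summed to 213980 to 270205 against 296324 to 393126 at day 1, with 6 of 10 higher and 1 lower. Their sum did not overlap at day 3 either, at 156650 to 173606 against 285088 to 295358. Nor did it in crypts, at 196112 to 229588 against 236540 to 276698, where the enzyme and enterocyte sums overlapped. The part of these cell type differences in the enzyme differences was not tested.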

How the data were processed

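Bulk RNA-seq of 18 libraries (stranded mRNA, single reads of 50 bases) was used. According to the methods, the authors trimmed reads with fastp 0.20.0, quantified them with Salmon 1.3.0 against GENCODE M21 (GRCm38) and normalized them with DESeq2 1.26.0, dropping genes with almost no reads. They deposited 1 table per day with gene-level signal, that is counts divided by a size factor per library. The same tables hold the authors' own comparisons, which were not used: deposited p-values, log2 fold changes with their errors, mean signal and a test score. Every per-sample column was used.

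The normalized counts were tested on the log2(normalized count + 1) scale with limma 3.58.1 (trend) in R 4.3.3, 3 libraries against 3 per day, over all genes with a mean of at least 10, with Benjamini-Hochberg adjustment over all of them and a threshold of 0.05. Fold changes of low genes are understated on this scale. An exact permutation test of 3 against 3 cannot go below 0.1. The change of the genotype difference between days was fitted to the 18 libraries together, treating mouse as a random effect. Mice are separate animals, and p-values cover the spread between these 6 mice. Whole reads were recovered from the signal for 100% of values (within 0.01 of a whole number) and tested with edgeR 4.0.16 and DESeq2 1.42.0 as alternatives. Counting error is small at this depth for genes with many reads and large for those near 10.

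The steps were tested on simulated data. Genes named in the text were, per comparison, up to 6 called members with the largest rise and fall and a mean of at least 50, the highest member of each family, up to 5 with the largest change of difference in each direction, and up to 3 per direction of each other list; exceptions are marked. Members and lists were chosen with earlier results of these data known. The same mouse number marks the same mouse across days. Between genotypes, the labels do not say that same-numbered mice are paired, and the main tests used no block. Deviations of same-numbered libraries correlated at 0.116, 0.231 and 0.216 at day 1. They correlated at 0.0764, 0.274 and 0.346 in crypts, and at -0.00666, -0.00226 and -0.0156 at day 3. These values do not settle whether mice were paired, and the replicate block is given as an alternative alone. Exons and shared windows came from GENCODE M21, read with Python 3.11.15. No protein sequence was used here. Alternatives were other pseudocounts, filters and scalings, leaving out each library, no trend and a replicate block. For the change between days, a whole mouse was left out in place of a library. Promoter motifs are not reported here.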

Additional observations from a re-analysis of the deposited data

Results flagged for a closer look

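Several conjugating enzymes had a genotype difference that changed between crypts and day 1 enteroids, which limma tested over the 18 libraries together, treating mouse as a random effect. Ugt1a9 changed most, by 4.18 on the log2 scale (adjusted p = 0.00143), from lower in Mtgr1-/- crypts to overlapping groups at day 1. Ugt2b38 changed by 2.78 (adjusted p = 0.00478), Sult1d1 by 2.38 (adjusted p = 0.000412), Gsta4 by 2.25 (adjusted p = 0.000666) and Gsta2 by 1.91 (adjusted p = 0.00157), each from a negative estimate in crypts that did not pass to a higher level at day 1. Gstm5 changed by -0.80 (adjusted p = 0.00881), from higher in Mtgr1-/- crypts to overlapping groups. Ugt1a9, Ugt2b38 and Gsta2 belong to the genes with large shares of sequence in common with a neighbour, at 62.0%, 37.4% and 49.8% of windows, while Sult1d1, Gsta4 and Gstm5 share none.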

How the results depend on the processing

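In crypts the count of higher members was 0 with a pseudocount of 0.1, without the trend and with edgeR, 6 with DESeq2 and 1 with Xist as a covariate, and that of lower members 2 with median-ratio rescaling and edgeR, 3 with the replicate block and 5 with DESeq2. DESeq2 called 584 genes higher and 789 lower over all genes. Leaving out 1 library gave 0 to 3 higher and 0 to 1 lower members, and 55 to 229 higher and 121 to 379 lower genes. At day 1 lower members were 2 without a filter, with quantile normalization and with the block, and 3 when scaled to library totals, where 2200 genes were higher and 5614 lower. Leaving out 1 library gave 26 to 29 higher and 1 to 2 lower members. At day 3 lower members were 1 with quantile normalization, the block and DESeq2, and leaving out 1 library gave 30 to 33 higher and 1 to 2 lower. For the change from crypts to day 1, lower members were 2 without a filter, with at least 10 in every library of one genotype and when scaled to totals, where 1219 genes were higher and 4458 lower. Leaving out 1 mouse there, with its libraries of all days, gave 16 to 24 higher members, 1630 to 2806 higher and 1737 to 2790 lower genes. From day 1 to day 3, all genes gave 49 higher and 4 lower with a pseudocount of 8, 17 and 3 with quantile normalization, 39 and 3 with the mouse as a fixed effect, 22 higher when scaled to totals, 0 lower without the trend and 2 lower with Xist. Leaving out 1 mouse there gave 0 to 1 members in each direction, 0 to 468 higher and 0 to 423 lower genes. The highest of these counts were without Mtgr1-/- mouse 2.

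Values that turned in sign were of genes not called in that comparison, other than Gstp1. On leaving out 1 crypt library Sult2b1 ran from -0.053 (without Mtgr1-/- mouse 3) to 0.43, Gstt3 from -0.024 (without WT mouse 3) to 0.16, Sult1b1 from -0.21 to 0.064 (without Mtgr1-/- mouse 2) and Gstm3 from -0.77 (without WT mouse 3) to 0.44, with 4 of its 6 values above 0. With quantile normalization Gstp1 was -0.0055 at day 1 and -0.0018 at day 3. Gstz1 was -0.20 at day 1 when scaled to totals, and at day 3 -0.010 with median-ratio rescaling, -0.038 with quantile normalization, -0.061 to 0.060 on leaving out 1 library (negative without WT mouse 3 or Mtgr1-/- mouse 2), -0.012 with edgeR, -0.00016 with DESeq2, -0.20 when scaled to totals and -0.0079 with Xist. The cause of these shifts was not tested. Correlations of same-numbered libraries were 0.0764, 0.274 and 0.346 in crypts, where WT mouse 1 correlated better with Mtgr1-/- mouse 2 (0.201) than with its own number, and -0.00666, -0.00226 and -0.0156 at day 3. With the replicate block the crypt calls were Gstk1 and Ugt1a1 higher and Ugt1a9, Gsta4 and Ugt2a3 lower, day 1 gained Ugt1a6a, day 3 gained Gstm6 and lost Sult4a1, and no other member's call changed. With the mouse as a fixed effect no member's call of a change between days was altered. Scaling to totals and the Xist covariate were chosen after seeing the data.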
